A study of Homo sapiens with 12 samples.

Results

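The insulin-like growth factor binding proteins (IGFBPs) are secreted proteins that hold the growth factors IGF1 and IGF2 outside the cell. The 6 genes described here, IGFBP2, IGFBP3, IGFBP4, IGFBP5, IGFBP6 and IGFBP7, were taken by gene name from a table of 60612 genes. IGFBP1, which had 0 counts in all 12 libraries, is not among them. They were measured in LX2, an established cell line derived from the human liver's hepatic stellate cells. Polyadenylated RNA of 12 libraries was sequenced, 4 in each of 3 groups. All cells were wild type for this line and were starved of serum for 16 h. The group called STINGX with TGFb was then pretreated for 3 h with 10 µM of STINGX, a compound known here only by its code name, and given TGFb, the cytokine transforming growth factor beta, at 5 ng/ml for 16 h. A second group received TGFb at 5 ng/ml for 16 h without the compound, and the control group was left untreated. No group received STINGX alone, so the compound was measured only in cells that also had TGFb. The series asks about stellate cell activation and its need for STING, a sensor pathway of DNA in the cytosol, and for mitochondrial DNA.

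IGFs act through IGF1R, a receptor tyrosine kinase, and a binding protein that holds an IGF keeps it from that receptor or, in the matrix or the circulation, prolongs its life and stores it. Proteases cut the binding proteins and release the ligand. IGFBP1 to IGFBP6 bind IGFs tightly, whereas IGFBP7 binds them weakly and is better known as a matrix and vessel-wall protein that also binds type IV collagen. Hepatic stellate cells are a source of several IGFBPs in the liver, and become matrix-producing myofibroblasts when activated by TGF-beta.

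Library totals ran from 58174812 to 70787741 counts in STINGX with TGFb, from 54035320 to 63193549 in TGFb and from 64151449 to 66738764 in control. All 6 members passed the filter on low counts, which left 21328 genes to test. Of 12 markers of stellate and mesenchymal cells, 9 averaged at least 1 FPKM, a level per transcript length and library depth, while DES and LRAT had 0 counts in all 12 libraries. Of 7 hepatocyte markers none averaged 1 FPKM over the 12 libraries, though SERPINA1 averaged 1.43 FPKM in control, and ALB, APOB and TTR had 0 counts. The hepatocyte list summed to 0.664 to 0.711 FPKM in STINGX with TGFb, 0.786 to 1.03 in TGFb and 1.26 to 1.74 in control. Of 8 macrophage and leukocyte markers only CD68 and CD14 averaged at least 1 FPKM. That list summed to 30.0 to 36.2 FPKM in STINGX with TGFb, 10.2 to 11.9 in TGFb and 30.2 to 32.4 in control, mostly through CD68, which other cells also carry, while PTPRC, the marker of all leukocytes, averaged 0.0223 FPKM or less in each group. Of 6 cholangiocyte and epithelial markers KRT7 and SOX9 averaged at least 1 FPKM, with EPCAM at 0.00534 FPKM or less. That list summed to 6.58 to 6.92 FPKM in STINGX with TGFb, 11.6 to 13 in TGFb and 9.65 to 10.1 in control. The stellate and mesenchymal list summed to 797.4 to 894.3 FPKM in STINGX with TGFb, 1448.7 to 1482.4 in TGFb and 913.4 to 962.4 in control. Both sums had the same order of groups as IGFBP7. KRT7 averaged 2.15 FPKM in STINGX with TGFb, 5.9 in TGFb and 3.09 in control. SOX9, at 4.59, 6.3 and 6.72 FPKM in these groups, was highest in control. Of 7 endothelial markers only TEK averaged 1 FPKM in any group, and the list summed to 1.79 to 2.31 FPKM in STINGX with TGFb, 2.01 to 2.27 in TGFb and 1.54 to 1.78 in control. The part of these lists in the results below was not tested. Levels below are CPM (counts relative to the scaled library size) within a gene, and FPKM where genes are set beside each other. Changes are log2 differences with their standard error (SE) and the adjusted p of edgeR's quasi-likelihood test over the 21328 genes, called at an adjusted p under 0.05. Separate cultures are not named in the labels for the replicates, so p-values measure the spread between these libraries, which may be technical. The libraries are bulk RNA, in which less RNA per cell and fewer expressing cells cannot be told apart.

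Positions are those of the deposited tables, build GRCh38. IGFBP2 (chr2:216632828-216664436, plus strand) and IGFBP5 (chr2:216672105-216695549, minus strand) are neighbours that run towards each other, with 7668 bases between their ends. IGFBP3 lies at chr7:45912245-45921274 (minus strand), IGFBP4 at chr17:40443450-40457725 (plus strand), IGFBP6 at chr12:53097436-53102345 (plus strand) and IGFBP7 at chr4:57030773-57110385 (minus strand).

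The bases before 3 start sites are shown because IGFBP5 and IGFBP6 were lower with TGFb and higher with STINGX than with TGFb alone, whereas IGFBP4 passed the test only where STINGX was present. Each line gives the 250 bases before a RefSeq start site (build GRCh38.p14), 5′ to 3′ on the gene's strand, with capitals for any match to a motif searched for on both strands: a TATA box (TATAAA), a GC box (GGGCGG), a SMAD box (CAGAC) and an AP-1 element (TGANTCA). The positions are chr2:216695550-216695799, minus strand, for IGFBP5, chr12:53097417-53097666, plus strand, for IGFBP6 and chr17:40443200-40443449, plus strand, for IGFBP4. The RefSeq start of IGFBP6 lies inside the deposited gene, which begins at chr12:53097436, and so does most of its window.
IGFBP5: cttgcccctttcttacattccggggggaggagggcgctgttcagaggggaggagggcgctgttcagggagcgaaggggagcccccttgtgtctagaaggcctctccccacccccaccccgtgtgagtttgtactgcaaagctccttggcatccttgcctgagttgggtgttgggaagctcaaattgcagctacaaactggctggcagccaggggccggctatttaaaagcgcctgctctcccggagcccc
IGFBP6: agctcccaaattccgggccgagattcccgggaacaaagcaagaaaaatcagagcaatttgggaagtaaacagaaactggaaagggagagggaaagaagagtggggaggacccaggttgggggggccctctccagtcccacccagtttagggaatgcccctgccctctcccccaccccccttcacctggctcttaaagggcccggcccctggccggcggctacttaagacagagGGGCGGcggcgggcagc
IGFBP4: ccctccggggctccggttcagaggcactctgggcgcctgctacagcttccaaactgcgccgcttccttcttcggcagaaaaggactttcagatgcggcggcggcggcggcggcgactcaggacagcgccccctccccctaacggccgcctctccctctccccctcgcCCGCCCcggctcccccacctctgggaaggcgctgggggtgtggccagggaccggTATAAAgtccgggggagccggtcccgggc
Counted from the start site as 0, IGFBP4 held TATAAA at -29 and the reverse complement of the GC box at -83, with another GC box at 24, past the printed bases. IGFBP6 held a GC box at -17. The IGFBP5 window held none of the 4 motifs. Of 34943 promoters of 300 bases (250 before to 50 after the start), 11.6% held TATAAA, 44.9% GGGCGG, 45.3% CAGAC and 7.72% TGANTCA. GC and SMAD boxes are thus common and the other motifs less so, and all matches are only a description. RefSeq promoters were matched for 5 of the 6 members, and IGFBP7 is named only. Of the windows not printed, IGFBP3 held 2 GC boxes, and IGFBP2, which has 3 annotated starts, held 3 SMAD boxes and 1 GC box at the first, 1 GC box at the next and 1 SMAD box at the last.

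Most of the family's message in LX2 cells came from IGFBP4, IGFBP5, IGFBP6 and IGFBP7. Per length, IGFBP4 and IGFBP7 were the most abundant, IGFBP5 and IGFBP6 came next, and IGFBP3 and IGFBP2 were scarce in all 3 groups. In STINGX with TGFb, IGFBP4 averaged 52.8 ± 0.649 FPKM and IGFBP7 50.4 ± 6.23 FPKM (SD, n = 4), with overlapping ranges, followed by IGFBP6 at 31.5 ± 0.586, IGFBP5 at 24.8 ± 1.40, IGFBP3 at 1.15 ± 0.0948 and IGFBP2 at 0.260 ± 0.0595 FPKM. In TGFb the order was IGFBP7 at 162.5 ± 5.33 FPKM, IGFBP4 at 106.1 ± 4.65, IGFBP6 at 21.1 ± 2.30, IGFBP5 at 19.5 ± 0.113, IGFBP3 at 2.34 ± 0.468 and IGFBP2 at 0.288 ± 0.108, and only the ranges of IGFBP6 and IGFBP5 overlapped. In control IGFBP4 led at 103.3 ± 8.73 FPKM, before IGFBP7 at 73.3 ± 5.44, IGFBP5 at 47.9 ± 1.32, IGFBP6 at 43.7 ± 4.96, IGFBP3 at 1.76 ± 0.292 and IGFBP2 at 0.646 ± 0.174, with overlapping ranges for IGFBP5 and IGFBP6. IGFBP4 and IGFBP7 thus changed places between TGFb and control, and IGFBP5 and IGFBP6 stood farther below them in TGFb.

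The family pool was smallest in STINGX with TGFb and differed in make-up between TGFb and control. Summed over the 6 members it came to 160.9 ± 7.42 FPKM in STINGX with TGFb, 311.9 ± 8.20 FPKM in TGFb and 270.6 ± 15.9 FPKM in control. IGFBP7 took 31.3 ± 2.59% of that sum in STINGX with TGFb, 52.1 ± 0.489% in TGFb and 27.1 ± 2.08% in control. IGFBP5 took 15.4 ± 0.881% in STINGX with TGFb, 6.26 ± 0.169% in TGFb and 17.7 ± 0.985% in control. IGFBP6 took 19.6 ± 0.725% in STINGX with TGFb, 6.78 ± 0.790% in TGFb and 16.1 ± 1.09% in control. Among the 4 abundant members the share of IGFBP4 spread least between groups, at 32.8 ± 1.39% in STINGX with TGFb, 34.0 ± 0.967% in TGFb and 38.1 ± 1.16% in control. The CPM scale does not divide by length, and its library sizes are scaled, so it can differ from FPKM in both respects. On the CPM scale the pool was 478.8 ± 22.0 in STINGX with TGFb, 889.8 ± 28.7 in TGFb and 895.2 ± 58.5 in control. By CPM the TGFb and control pools overlapped (856.7 to 919.1 in TGFb, 838.4 to 947.9 in control), whereas by FPKM they did not (301.9 to 321.5 in TGFb, 253.5 to 284.4 in control), so whether TGFb enlarged the pool depended on the scale. The pool was lower in STINGX with TGFb than in the other groups on both scales.

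**Figure D1:**
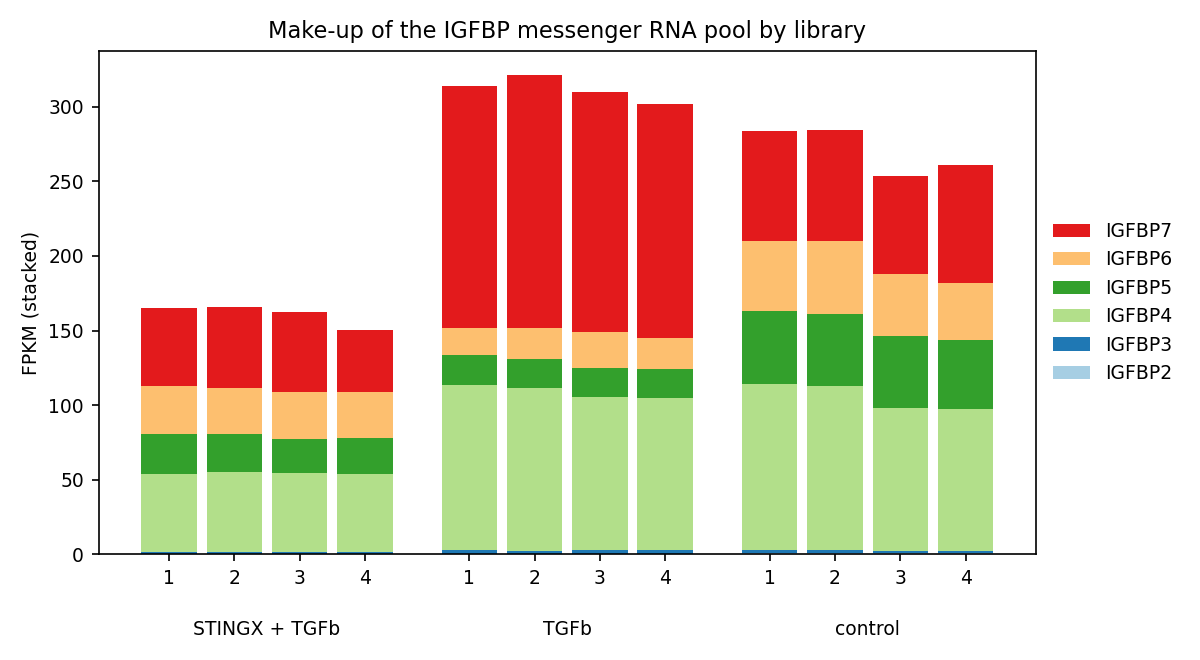
Summed FPKM of the 6 members in each of the 12 libraries, stacked by member, with the 4 libraries of STINGX with TGFb at the left, TGFb in the middle and control at the right. The bars average 160.9 FPKM in STINGX with TGFb, 311.9 FPKM in TGFb and 270.6 FPKM in control, and IGFBP7 takes 52.1% of the TGFb bars on average.

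Against control, TGFb moved 5 of the 6 members: IGFBP7 and IGFBP3 rose, IGFBP2, IGFBP5 and IGFBP6 fell, and IGFBP4 did not pass the test. The call of IGFBP3 was lost in 10 of 13 other settings and without any of 10 of the 12 libraries, which leaves 4 members. Over all genes tested 26.0% were called in this comparison, 13.2% higher and 12.8% lower. The 4 libraries of TGFb lay wholly beyond those of control for 4 members (IGFBP2, IGFBP5, IGFBP6 and IGFBP7), against 27.1% of all genes tested. IGFBP2, IGFBP5 and IGFBP7 were called with a change of at least 2-fold, as were 6.97% of all genes. The median change of the 6 members was -0.45, against -0.004 over all genes, and covers changes in both directions.

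With STINGX before TGFb, IGFBP7, IGFBP4 and IGFBP3 fell relative to TGFb alone, IGFBP6 and IGFBP5 rose, and IGFBP2 did not pass the test. Over all genes 27.5% were called, 13.7% higher and 13.8% lower. The 5 called members did not overlap between the groups, against 31.6% of all genes tested. IGFBP3, IGFBP4 and IGFBP7 changed at least 2-fold, as did 6.19% of all genes, and the members' median change was -0.72, against 0.006 over all genes. This comparison and the one of TGFb with control share the 4 TGFb libraries, so the values of both are given side by side and not read as independent of each other. Relative to untreated control, all 6 members were lower in STINGX with TGFb, where 17.0% of all genes were called lower and 34.2% in either direction. None of the 6 overlapped between these groups (34.5% of all genes tested). IGFBP2, IGFBP4 and IGFBP5 were at least 2-fold lower, where 7.58% of all genes were called with such a change in either direction, and the members' median change was -0.86, against 0.004 over all genes. With library sizes unscaled, the median of all genes shifted to -0.07 in TGFb against control, 0.15 in STINGX with TGFb against TGFb and 0.08 in STINGX with TGFb against control, and no called member changed direction. The split of all calls was then 2224 higher and 3523 lower, in place of 2813 and 2730, in TGFb against control. It was 4997 higher and 1890 lower, in place of 2931 and 2933, in STINGX with TGFb against TGFb, and 4683 and 2876, in place of 3670 and 3626, in STINGX with TGFb against control.

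**Figure D2:**
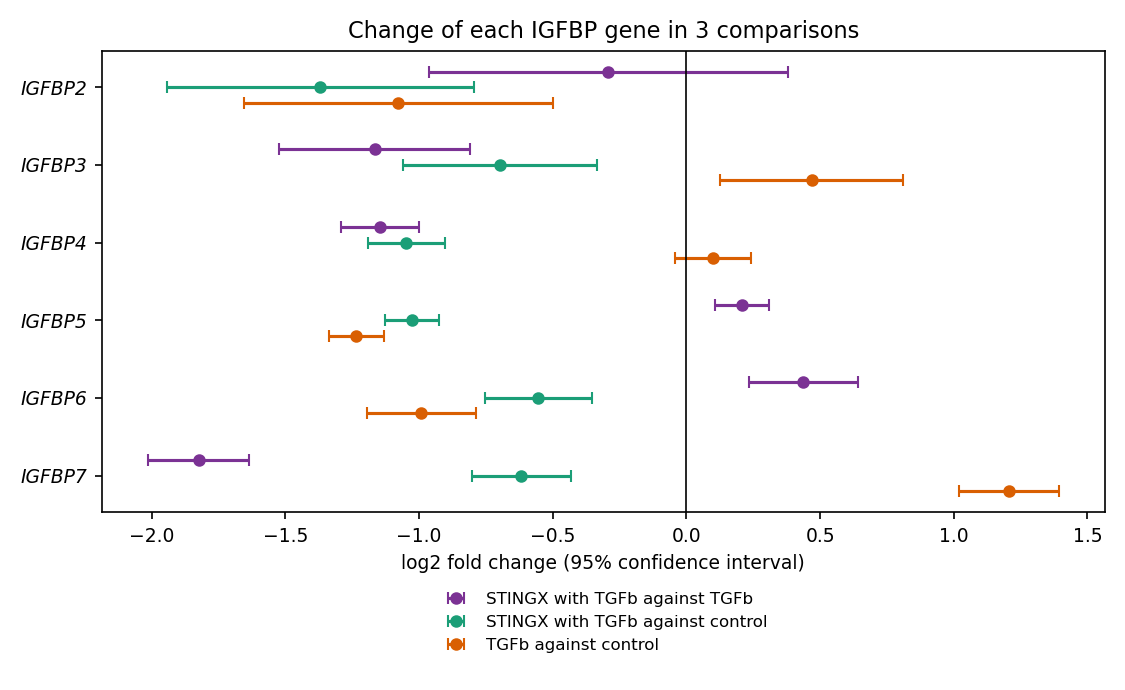
Log2 change of each member with its 95% confidence interval in the 3 comparisons, from edgeR's quasi-likelihood fit over 12 libraries. IGFBP7 runs from 1.21 in TGFb against control to -1.83 in STINGX with TGFb against TGFb, and all 6 members are below 0 in STINGX with TGFb against control.

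IGFBP7 showed the widest swing of the family. It had 115.6, 119.6, 115.9 and 89.7 CPM in STINGX with TGFb, 393.5, 411.0, 383.5 and 374.1 CPM in TGFb, and 173.4, 175.0, 148.7 and 179.3 CPM in control. The 3 groups did not overlap, with every TGFb library above and every STINGX with TGFb library below the controls. The change in STINGX with TGFb against TGFb was -1.83 (SE 0.0876, adjusted p 8.95e-09, edgeR), 3.54-fold lower, and 1.57% of genes tested fell as far or farther. TGFb against control gave 1.21 (SE 0.0860, adjusted p 3.56e-07, edgeR), 2.31-fold higher, and STINGX with TGFb against control gave -0.62 (SE 0.0857, adjusted p 0.000114, edgeR). Library 4 of STINGX with TGFb was low. Without it the change was -1.74 against TGFb (adjusted p 6.76e-09) and -0.53 against control (adjusted p 6.51e-05).

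IGFBP7 overlaps 3 genes on the opposite strand: POLR2B, a subunit of RNA polymerase II, by 386 bases, IGFBP7-AS1 by 624 bases and UBE2CP3 by 450 bases. Whether the counting used strand is not given in the sources used here, so reads of these overlaps may be shared. IGFBP7-AS1 held 75 counts and UBE2CP3 14 counts over the 12 libraries. POLR2B had 182.0 ± 5.69 CPM in STINGX with TGFb, 202.3 ± 4.73 CPM in TGFb and 199.8 ± 7.76 CPM in control, a narrower spread between groups than that of IGFBP7.

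**Figure D3:**
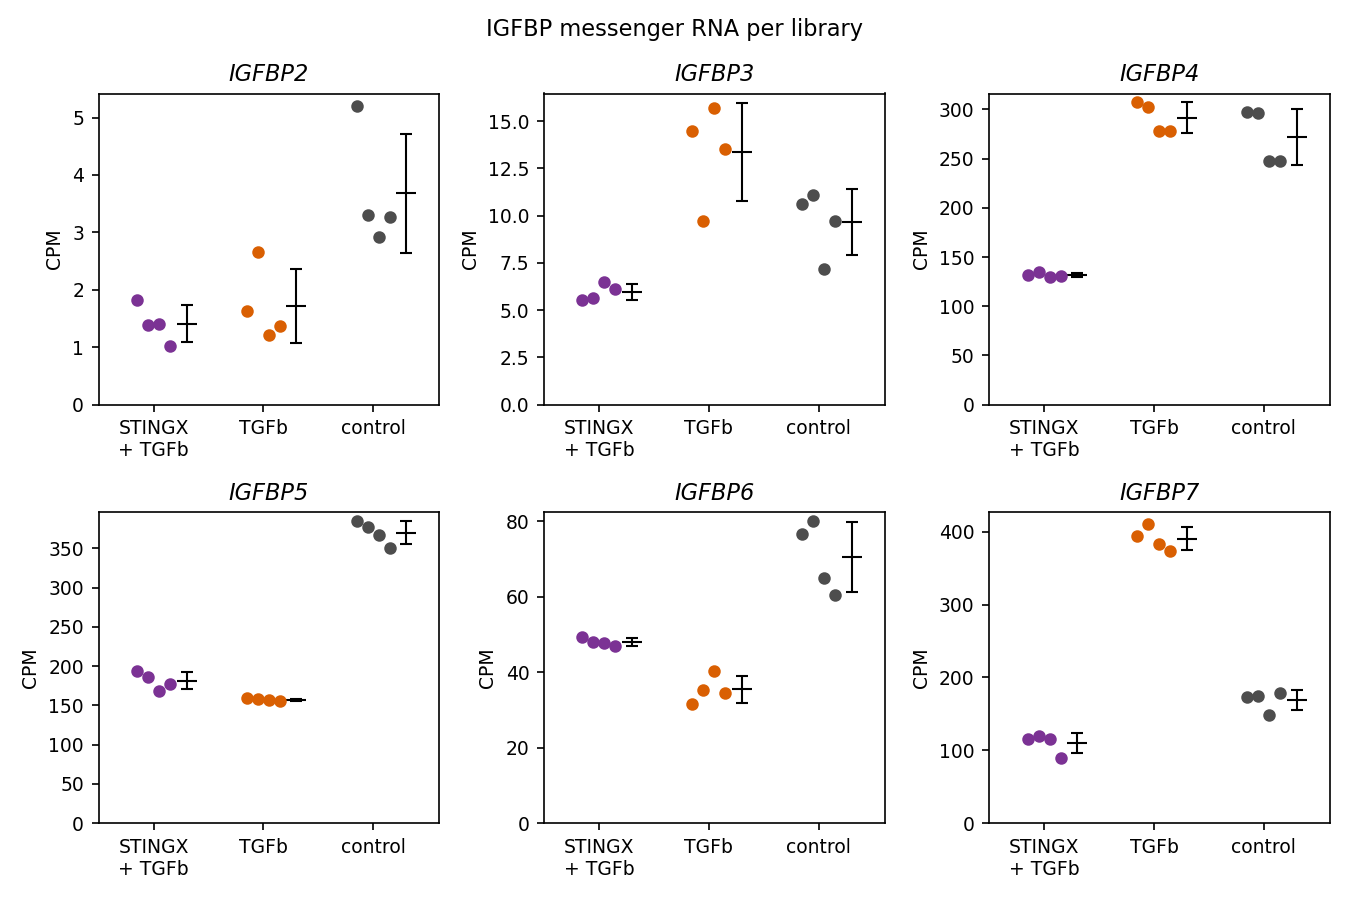
CPM of each member in each library, with the groups STINGX with TGFb, TGFb and control from left to right, points for libraries, and a dash with a bar for the mean ± SD of 4 libraries. IGFBP4 is low only in STINGX with TGFb (130.2 to 135.0 CPM), whereas IGFBP5 is high only in control (350.7 to 385.0 CPM).

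Most IGFBP7 counts were given to IGFBP7-201 with 79.1% (1427 bases, 5 exons, 846 coding bases) and to IGFBP7-203 with 18.8% (1251 bases, 4 exons, 837 coding bases), described here by GENCODE v29. These transcripts share their first 863 bases, up to chr4:57032426, and then part. The 30 bases around that point are printed because both sets of counts hang on the bases past it, with the 15 bases of its own in capitals for each.
IGFBP7-201: taccagtgaaaaaagGTGAAGGTGCCGAGC
IGFBP7-203: taccagtgaaaaaagGTACACAATAAATCT
The first own base is at chr4:57031336 in IGFBP7-201, with 17 own coding bases, and at chr4:57032425 in IGFBP7-203, with 8 own coding bases, so the end of the encoded protein differs.

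IGFBP7-201 had 96.7, 116.0, 112.3 and 62.4 CPM in STINGX with TGFb, 286.4, 325.4, 265.1 and 256.7 CPM in TGFb, and 151.1, 145.8, 107.3 and 175.6 CPM in control. IGFBP7-203 had 18.9, 3.61, 2.76 and 27.3 CPM in STINGX with TGFb, 87.3, 68.9, 101.7 and 117.4 CPM in TGFb, and 17.9, 29.2, 41.3 and 3.69 CPM in control. For both transcripts every TGFb library was above every other library. STINGX with TGFb and control overlapped in both transcripts. As a share of the gene, IGFBP7-203 took 13.1 ± 13.3% in STINGX with TGFb, 24.2 ± 6.22% in TGFb and 14.2 ± 10.8% in control, ranges that overlapped. The authors' software divided reads between transcripts that share most of their bases, and the wide spread within groups limits what the shares can show. The low library 4 of STINGX with TGFb was low in IGFBP7-201 and highest of its group in IGFBP7-203.

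**Figure D4:**
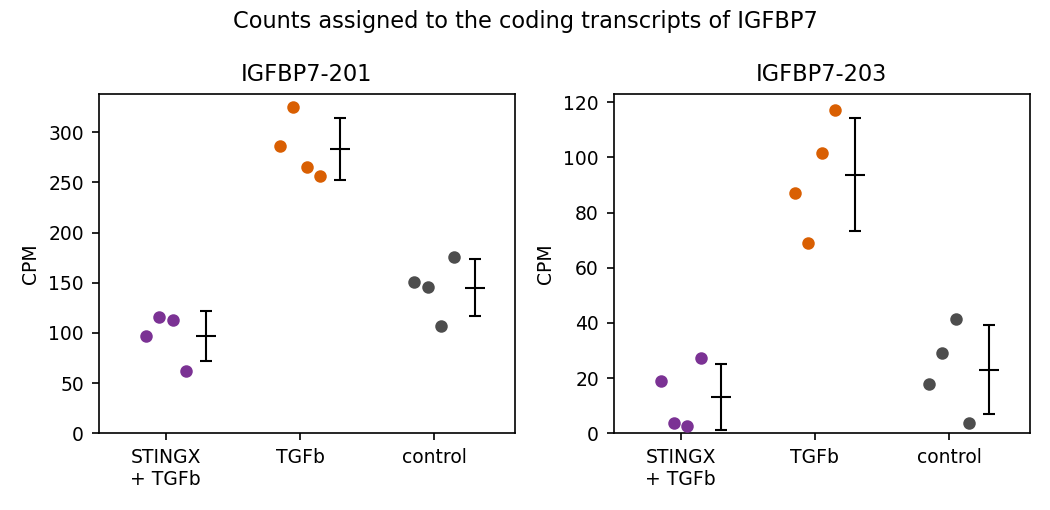
CPM of IGFBP7-201 and IGFBP7-203 in each library, with groups STINGX with TGFb, TGFb and control from left to right, points for libraries, and a dash with a bar for the mean ± SD of 4. Both transcripts are highest in TGFb, and IGFBP7-203 ranges from 3.69 to 41.3 CPM within control.

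IGFBP4, an inhibitor of IGF action that is cut mainly by the protease PAPPA, passed the test only in the comparisons that include STINGX. It had 131.3, 135.0, 130.2 and 130.3 CPM in STINGX with TGFb, 307.3, 302.7, 278.1 and 278.0 CPM in TGFb, and 297.2, 296.4, 247.8 and 247.6 CPM in control. TGFb and control overlapped, and all 4 libraries with STINGX lay below both. Against TGFb the change with STINGX was -1.15 (SE 0.0666, adjusted p 5.81e-08, edgeR), 2.21-fold lower, and against control it was -1.05 (SE 0.0664, adjusted p 1.11e-07, edgeR). TGFb against control gave 0.10 (SE 0.0655, 95% interval -0.04 to 0.24, adjusted p 0.316, edgeR). In TGFb and in control, libraries 1 and 2 lay above libraries 3 and 4. Its single annotated transcript, IGFBP4-201, carried all its counts.

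IGFBP5 and IGFBP6 were the members that were lowest in TGFb. IGFBP5, a matrix-binding member, had 194.1, 186.4, 168.1 and 177.7 CPM in STINGX with TGFb, 159.0, 157.7, 157.0 and 155.2 CPM in TGFb, and 385.0, 377.4, 366.9 and 350.7 CPM in control. The 3 groups did not overlap. TGFb against control gave -1.24 (SE 0.0467, adjusted p 9.88e-10, edgeR), 2.35-fold lower. STINGX with TGFb exceeded TGFb by 0.21 (SE 0.0462, 95% interval 0.11 to 0.31, adjusted p 0.00470, edgeR), or 1.16-fold, and 31.6% of genes tested rose as far or farther. It stayed below control at -1.03 (SE 0.0464, adjusted p 5.02e-09, edgeR). IGFBP5-201 carried 99.9% of its counts, and the gene it overlaps on the other strand, AC007563, had 0 counts.

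IGFBP6, which prefers IGF2 as its ligand, had 49.3, 47.9, 47.7 and 46.9 CPM in STINGX with TGFb, 31.6, 35.3, 40.3 and 34.6 CPM in TGFb, and 76.5, 80.0, 64.9 and 60.4 CPM in control. Here too the groups did not overlap, with STINGX with TGFb between the other groups. The changes were -0.99 (SE 0.0934, adjusted p 5.03e-06) in TGFb against control and 0.44 (SE 0.0934, 95% interval 0.23 to 0.64, adjusted p 0.00364) in STINGX with TGFb against TGFb, by edgeR. In STINGX with TGFb against control it was 1.47-fold lower (adjusted p 0.000467, edgeR). IGFBP6-201 carried 97.8% of its counts.

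IGFBP3, the main carrier of IGFs in serum, was scarce in these cells. It had 5.54, 5.65, 6.50 and 6.14 CPM in STINGX with TGFb, 14.5, 9.72, 15.7 and 13.5 CPM in TGFb, and 10.6, 11.1, 7.18 and 9.69 CPM in control. All libraries with STINGX lay below all others, while TGFb library 2 fell within the range of control. STINGX with TGFb against TGFb gave -1.17 (SE 0.164, adjusted p 0.000162, edgeR), 2.24-fold lower, and against control it was 1.62-fold lower (adjusted p 0.00588, edgeR). The rise in TGFb against control, 0.47 (SE 0.158, adjusted p 0.0457, edgeR), lay near the threshold. It was lost when any of 10 of the 12 libraries was left out, all but TGFb library 2 and control library 2. The adjusted p ran from 0.00823 to 0.130 over the 12 fits. Leaving out a library of STINGX with TGFb, a group outside this comparison, kept the change at 0.467 to 0.468. Only the adjusted p then moved, to between 0.0562 and 0.0596 (edgeR). The counts of IGFBP3 were split between IGFBP3-201 (77.6%) and IGFBP3-202 (14.2%) in an unstable way. Library 3 of STINGX with TGFb had 0 counts for IGFBP3-201 and 333 for IGFBP3-202, where library 2 of that group had 348 and 1.

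IGFBP2 was the scarcest member, known as a binding protein with an integrin-binding motif. It had 1.82, 1.39, 1.40 and 1.03 CPM in STINGX with TGFb, 1.63, 2.66, 1.21 and 1.37 CPM in TGFb, and 5.21, 3.31, 2.92 and 3.27 CPM in control. All control libraries lay above all others, and the other groups overlapped. TGFb was 2.11-fold below control (log2 change -1.08, SE 0.266, adjusted p 0.00929, edgeR) and STINGX with TGFb 2.59-fold (-1.37, SE 0.264, adjusted p 0.00144, edgeR). Between STINGX with TGFb and TGFb the change was -0.29 with a 95% interval from -0.96 to 0.38 (adjusted p 0.541, edgeR), an interval that reaches from nearly 2-fold lower to somewhat higher.

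For each member the genes whose centred log2 CPM ran closest to its own over the 12 libraries were taken from 11530 tested genes with at least 5 CPM on average, by the root mean square (RMS) difference. The libraries share their treatment groups, so these values describe likeness across those groups. IGFBP7 was closest to COL4A2, a type IV collagen chain (RMS 0.120), SPARC, a collagen-binding matrix protein (0.141), and COL1A1, a type I collagen chain (0.157). COL4A2 changed by -1.73 in STINGX with TGFb against TGFb and by 1.15 in TGFb against control. IGFBP4 ran closest to GFRA1, a co-receptor of the neurotrophic factor GDNF (RMS 0.0780), and to ACAT2 (0.0826) and MSMO1 (0.0854), enzymes of sterol synthesis. ACAT2 changed by -1.28 in STINGX with TGFb against TGFb and by 0.07 in TGFb against control.

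IGFBP5 was closest to TXNIP, which binds thioredoxin (RMS 0.0684), GPRC5B, an orphan receptor (0.0755), and EPAS1, a hypoxia-inducible factor subunit (0.1). TXNIP changed by 0.22 in STINGX with TGFb against TGFb and by -1.25 in TGFb against control. IGFBP6 was closest to MT1E, a metallothionein (0.107), FTH1, the ferritin heavy chain (0.108), and CCDC85B (0.123). MT1E and FTH1 have near-identical copies, so their counts are uncertain. The scarce members had looser matches: LITAF (0.183), P3H4 (0.188) and PLSCR1 (0.194) for IGFBP3, and PTK2B (0.284), EEF1A1P9 (0.301) and MATN2 (0.306) for IGFBP2. EEF1A1P9 is a pseudogene that may take reads of its parent.

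The rest of the IGF system was followed in a list of 44 genes, of which 40 could be tested. In TGFb against control 17 were higher and 11 lower (median change 0.15). In STINGX with TGFb against TGFb 14 were higher and 12 lower (median -0.12), and in STINGX with TGFb against control 15 were higher and 13 lower (median 0.10). Over all genes tested the shares called were 26.0%, 27.5% and 34.2% in these comparisons. Nothing particular to the list, or to a role within it, is read from its counts. IGF1, GRB14 and CCN6 were too low to test, as was IGFBP1.

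Of the ligands, IGF2 could be tested and IGF1 could not. IGF1 had 12 counts in all, all in TGFb library 1. IGF2 averaged 5.12 ± 0.548 CPM in STINGX with TGFb, 6.03 ± 0.520 CPM in TGFb and 8.26 ± 0.542 CPM in control. It fell in TGFb against control by 0.46 on the log2 scale (adjusted p 0.00546, edgeR), and its change of -0.23 in STINGX with TGFb against TGFb did not pass (adjusted p 0.132). IGF1R, the signalling receptor, had 91.1 ± 2.14 CPM in STINGX with TGFb, 104.8 ± 4.24 CPM in TGFb and 85.3 ± 2.34 CPM in control. IGF2R, which clears IGF2, had 399.2 ± 9.15 CPM in STINGX with TGFb, 460.2 ± 18.9 CPM in TGFb and 483.9 ± 20.7 CPM in control. IGF1R was called higher in TGFb against control (0.30) and both receptors lower in STINGX with TGFb against TGFb (-0.20 and -0.21 for IGF1R and IGF2R), but with library sizes unscaled the last 2 changes were -0.06 each and not called. INSR, the insulin receptor, averaged 31.5 ± 1.44 CPM in STINGX with TGFb, 23.2 ± 1.53 in TGFb and 23.2 ± 1.88 in control, and rose with STINGX by 0.44 (adjusted p 0.000588, edgeR).

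Of 5 tested adaptors of these receptors, 3 rose in STINGX with TGFb against TGFb (13.7% of all genes) and 1 fell (13.8%). IRS1 had 86.1 ± 4.05 CPM in STINGX with TGFb against 57.1 ± 2.95 CPM in TGFb (0.59), IRS2 40.8 ± 1.13 CPM in STINGX with TGFb against 29.9 ± 1.66 CPM in TGFb (0.45), and IRS4 6.91 ± 0.672 CPM in STINGX with TGFb against 3.15 ± 0.301 CPM in TGFb (1.14). GRB10, an adaptor that restrains IGF1R and the insulin receptor, fell to 17.2 ± 0.557 CPM with STINGX against 25.5 ± 1.63 CPM in TGFb (-0.57, adjusted p 2.57e-05), and control stood at 17.5 ± 0.722 CPM. SHC1 did not pass in either of these comparisons.

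The proteases that cut IGFBPs changed in both directions. MMP1, interstitial collagenase, which also cuts IGFBP3, had 1406.6 ± 14.2 CPM in STINGX with TGFb, 63.1 ± 2.41 CPM in TGFb and 545.6 ± 33.2 CPM in control. Its change was 4.48 in STINGX with TGFb against TGFb (adjusted p 3.36e-14) and -3.11 in TGFb against control (adjusted p 3.27e-13, edgeR). PAPPA, the metalloprotease that cuts IGFBP4, had 86.4 ± 3.44 CPM in STINGX with TGFb, 50.8 ± 1.94 CPM in TGFb and 50.6 ± 1.97 CPM in control, a change of 0.77 with STINGX (adjusted p 1.22e-07) and of 0.00 with TGFb (adjusted p 0.963, edgeR). PAPPA2, which cuts IGFBP3 and IGFBP5, had 4.44 ± 0.466 CPM in STINGX with TGFb against 0.337 ± 0.0885 CPM in TGFb (3.72, adjusted p 8.96e-08). ADAMTS1 also rose with STINGX, by 1.47, as did MMP3, by 3.63 at low levels. HTRA1, a secreted serine protease known to cut IGFBP5, fell, with 22.3 ± 1.40 CPM in STINGX with TGFb, 81.8 ± 2.67 CPM in TGFb and 58.8 ± 4.97 CPM in control (-1.87 with STINGX, adjusted p 6.52e-10). ADAM12, which cuts IGFBP3 and IGFBP5, had 13.1 ± 1.27 CPM in STINGX with TGFb against 28.8 ± 0.458 CPM in TGFb and 9.50 ± 0.391 CPM in control. ADAM9 had 259.1 ± 4.03 CPM in STINGX with TGFb, 263.8 ± 3.0 CPM in TGFb and 319.6 ± 11.1 CPM in control. It fell in TGFb against control (-0.28, adjusted p 3.79e-05, edgeR) and did not pass in STINGX with TGFb against TGFb (adjusted p 0.616, edgeR). In all, 5 of the 10 tested proteases rose and 2 fell in STINGX with TGFb against TGFb (13.7% and 13.8% of all genes). Among them 4 rose and 3 fell in TGFb against control (13.2% and 12.8% of all genes). These are messenger RNA levels, and no cleavage was measured.

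STC1 and STC2, the stanniocalcins, which inhibit PAPPA, both fell with TGFb. STC1 had 251.3 ± 4.63 CPM in STINGX with TGFb, 131.6 ± 2.98 CPM in TGFb and 265.3 ± 4.92 CPM in control (-1.01 in TGFb against control and 0.93 in STINGX with TGFb against TGFb). STC2 had 319.6 ± 8.45 CPM in STINGX with TGFb, 299.4 ± 8.90 CPM in TGFb and 589.0 ± 12.9 CPM in control, with -0.98 in TGFb against control (adjusted p 4.48e-10) and 0.09 in STINGX with TGFb against TGFb (adjusted p 0.0569, edgeR). That last change of STC2 had groups that did not overlap, and it was called in 6 of 13 other settings, with values up to 0.235 (adjusted p down to 5.54e-05).

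Of 6 cell surface partners, 5 rose in TGFb against control (13.2% of all genes) and 4 fell in STINGX with TGFb against TGFb (13.8% of all genes). LRP1, a large endocytic receptor that binds IGFBP3, had 374.7 ± 22.6 CPM in STINGX with TGFb, 905.2 ± 31 CPM in TGFb and 555.1 ± 28.5 CPM in control. ITGB1, the common beta integrin chain, had 1323.7 ± 27.3 CPM in STINGX with TGFb, 2897.2 ± 153.6 CPM in TGFb and 1633.2 ± 76.6 CPM in control. ITGA5, its partner in the fibronectin receptor, had 413.2 ± 19.3 CPM in STINGX with TGFb, 864.0 ± 47.9 CPM in TGFb and 442.9 ± 24.8 CPM in control. ITGAV fell with STINGX by 0.84 on the log2 scale, whereas ITGB3 rose by 0.54.

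The list held 10 more tested genes that encode the N-terminal IGFBP domain, beside HTRA1 and IGFBPL1, which carry it too and stand under other roles. CCN2, connective tissue growth factor, a classical TGF-beta target, had 124.4 ± 2.61 CPM in STINGX with TGFb, 294.4 ± 3.35 CPM in TGFb and 79.6 ± 2.96 CPM in control (-1.24 with STINGX, adjusted p 8.48e-11). HTRA3, a relative of HTRA1, was 1.30 lower on the log2 scale with STINGX, and CRIM1, a membrane protein, 0.45 lower. ESM1, an endothelial secreted proteoglycan, had 159.7 ± 2.68 CPM in STINGX with TGFb, 63.3 ± 4.74 CPM in TGFb and 30.6 ± 1.71 CPM in control, 1.34 higher in STINGX with TGFb than in TGFb and 1.05 higher in TGFb than in control on the log2 scale. CCN3 had 9.65 ± 0.580 CPM in STINGX with TGFb, 6.31 ± 0.169 CPM in TGFb and 20.5 ± 0.970 CPM in control, and CCN1 was 0.28 higher with STINGX. In STINGX with TGFb against TGFb 3 of the 10 rose and 3 fell (13.7% and 13.8% of all genes). In TGFb against control 5 rose and 3 fell (13.2% and 12.8% of all genes).

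**Figure D5:**
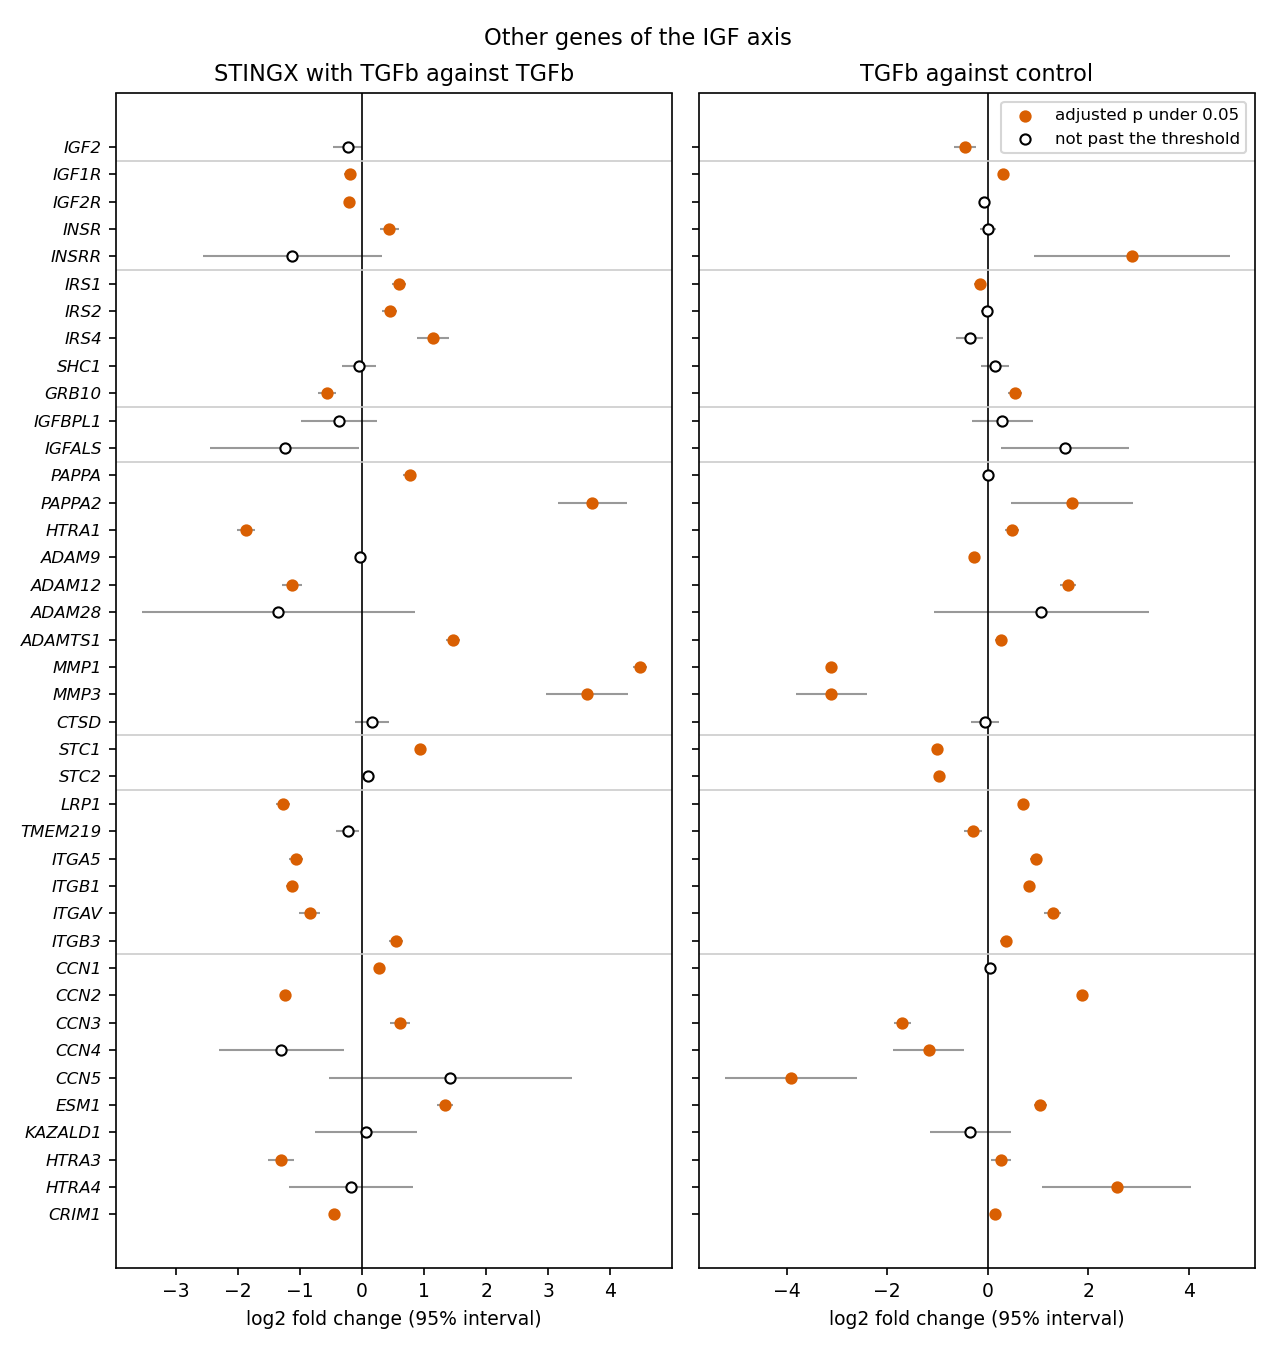
Log2 change of the 40 tested genes of the IGF list, ordered by role with lines between roles, in STINGX with TGFb against TGFb (left) and TGFb against control (right), with filled points for an adjusted p under 0.05. MMP1 lies at 4.48 on the left and -3.11 on the right, CCN5 at -3.92 on the right, and LRP1, ITGA5 and ITGB1 are below 0 on the left and above 0 on the right.

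Several calls of the list in TGFb against control rested on low counts or single libraries. INSRR (2.87, adjusted p 0.0292) was lost without TGFb library 2 or control library 1, 2 or 4 (adjusted p 0.0761 to 0.118) and was 5.32 without control library 3. PAPPA2 (1.68, adjusted p 0.0415) was lost without 8 of the libraries, all but STINGX with TGFb libraries 1 and 3, TGFb library 3 and control library 4, and was 2.29 without the last. IRS1 (-0.15, adjusted p 0.0434) held only without STINGX with TGFb library 1, TGFb library 2 or control library 3, and HTRA3 (0.27, adjusted p 0.0491) only without STINGX with TGFb library 2 or control library 1. TMEM219 was lost without TGFb library 1 (adjusted p 0.0641) or control library 2 (0.0619), CCN4 without TGFb library 3 (0.0525) and HTRA4 without TGFb library 1 (0.0527). CCN5 changed by -3.92, and by -5.06 without TGFb library 4, and HTRA4 by 2.57, and by 3.65 without control library 2.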

How the data were processed

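Polyadenylated RNA of LX2 cells was sequenced as strand-specific read pairs on a NovaSeq instrument, per the labels' protocols. The submitters' processing notes name cutadapt, HISAT2, StringTie, edgeR and the build GRCh38, with no versions or roles. Neither the release of the annotation nor the use of strand by the counter is given in the sources used here. Estimated counts for 60612 genes and 229420 transcripts, all whole numbers, were deposited by the authors, with FPKM values, listed at 0.0001 where the count is 0. No value column lacked a sample.

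Genes were tested on the deposited counts with edgeR 4.0.16 (R 4.3.3): filterByExpr (minimum count 10, minimum total 15), TMM scaling, robust quasi-likelihood fit over all 12 libraries (9 residual degrees of freedom), Benjamini-Hochberg adjustment over 21328 genes. CPM used TMM library sizes. FPKM served for levels between genes and, through limma 3.58.1 on log2(FPKM + 1) and log2(FPKM + 0.1), as an alternative, beside DESeq2 1.42.0. The code was tested on simulated data. Replicates of a group differed beyond counting noise, with a chi-square of 38.4 to 80.8 per degree of freedom. Groups share replicate numbers, but over all genes tested same-numbered libraries did not deviate together (12 pairs, correlations -0.0383 to 0.0452), so no block was used. Single genes can differ from this, as IGFBP4 did in TGFb and control. Fragments carried no molecular identifiers, so counts are not independent molecules.

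The members and lists were chosen with earlier results of these data known. Genes were named by rule: all 6 members; of 44 IGF system genes each ligand and receptor and, within other roles, genes past the threshold; the 3 genes most like each member with a mean of at least 5 CPM (prior count 2 on the log scale); and transcripts with at least 5% of a member's counts. POLR2B and the genes overlapping IGFBP5 and IGFBP7 were added for their position. Motif matches used RefSeq promoters (GRCh38.p14); GENCODE v29, of the same build as the files, gave transcript sequence.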

Additional observations from a re-analysis of the deposited data

Results flagged for a closer look

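Within groups of 4 libraries, 121 sets of values were searched for a library far from the other 3, and 6 were found, 1 of them among the 18 sets of the members. Chance marks about 1 set in 20, which is close to that count. IGFBP7 in STINGX with TGFb had 89.7 CPM in library 4, where the other 3 had 115.6 to 119.6 CPM, and the changes without it are given with that gene. PAPPA in STINGX with TGFb had 91.5 CPM in library 1, where the others had 84.3 to 85.2 CPM. ADAM12 in STINGX with TGFb had 11.2 CPM in library 3, where the others had 13.7 to 13.9 CPM. IGF2 in TGFb had 6.81 CPM in library 3, where the others had 5.72 to 5.84 CPM. IGF1 in TGFb had 0.200 CPM in library 1 and 0 counts in the others. INSRR in control had 0.226 CPM in library 3, where the others had 0 to 0.0296 CPM.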

How the results depend on the processing

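Over 13 other settings (scaling, filter, tool, FPKM in place of counts, only the compared groups, the replicate block) and 12 fits without 1 library each, the count of members changed was 4 or 5 in TGFb against control, 5 in STINGX with TGFb against TGFb and 6 in STINGX with TGFb against control. The call that came and went was IGFBP3 in TGFb against control, lost in 10 of the 13 settings (adjusted p 0.0379 to 0.151) and 10 of the 12 fits; the cause was not tested. With the replicate number as a block, IGFBP3 had an adjusted p of 0.0916, IGF list calls were 24 in TGFb against control, 27 in STINGX with TGFb against TGFb and 28 in STINGX with TGFb against control, and no other member's call changed. Of the 12 same-numbered pairs, 5 correlated best with their own number. ADAM9 in STINGX with TGFb against TGFb, -0.03 in the reported fit, turned to 0.12 with library sizes unscaled (adjusted p 0.0415) and to 0.11 with log2(FPKM + 0.1) (adjusted p 0.0498). Library sizes left unscaled shift the median of all genes by 0.15 in that comparison, and the shift with FPKM was not measured. Of 2984 values for 120 named results, 2846 kept their side of the threshold, 98 lost the call, 38 gained it and 2 reversed. A change of sign was counted as reversed only where the reported fit or the other fit passed the threshold. Uncalled changes could therefore change sign and still count as kept. Likeness values, checked after the data were seen, ranged from 0.0502 to 0.320 and kept within the spread in all 270 cases. Summed CPM with library sizes unscaled was 503.5 in STINGX with TGFb and 848.7 in TGFb. For IGFBP2, at 1.03 to 5.21 CPM, the change without 1 library in STINGX with TGFb against TGFb ran from -0.44 to 0.01.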
